A study of Mus musculus with 96 samples.

Results

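C57BL6/J, the inbred mouse strain most used in laboratories, was compared with 4 other inbred strains in the liver of mice on a control diet. The comparison set the 8 C57BL6/J control mice against the mean of 129S1/SvImJ, C3H/HeJ, CBA/J and DBA/2J, with 8 control mice and equal weight for each strain, and all genes were tested. It used 40 of the 96 arrays of the series. The cross B6C3F1/J was not used. All mice were males, received at 6 weeks of age, kept singly and given 84 kcal a week of a purified diet based on AIN93M for 2 weeks. The control diet ran from 8 weeks of age until the liver was taken at 22 weeks. A further group of 8 mice per strain received a diet cut by 25% in calories over the same 14 weeks, and 32 of those arrays served as mice that the main comparison had not used. Each array held 1 mouse, per the labels, so the p values of genes measure the spread between mice of a strain kept and fed alike. A strain difference includes every difference between the strains' genomes, and no single allele was manipulated.

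Inbred strains are close to genetically uniform within a strain, and mice of different strains differ at many sites. Some differences are large in effect, such as deleted or duplicated genes, and each strain carries 1 haplotype of the major histocompatibility complex. C57BL6/J is known as a strain that gains fat readily on rich diets and lacks a working Nnt gene. Liver is mostly hepatocytes, which make plasma proteins, lipids, bile acids and drug-metabolizing enzymes, together with resident macrophages (Kupffer cells), endothelial cells and stellate cells.

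The promoters of 4 genes are shown because the results turn on gene groups with known response elements. Trim30d, a TRIM-family gene of the interferon response, and Gbp3, a guanylate-binding GTPase, belong to interferon-induced families. Mt1 and Mt2 encode metallothioneins, which bind zinc and copper and are induced by metals and glucocorticoids. Each sequence holds the 250 bases before the transcript start in RefSeq's GRCm38.p6, read 5' to 3' on the gene's strand. The reference genome is that of C57BL6/J, so the letters are not those of the other strains. In Trim30d and Gbp3, capitals mark GAAA followed after any 2 bases by GAAA again, on either strand, a core of the interferon-stimulated response element. They lie in Trim30d (chr7:104507850-104508099, minus strand) and in Gbp3 (chr3:142559794-142560043, plus strand, 2 overlapping matches). In Mt1 (chr8:94178839-94179088, plus strand) and Mt2 (chr8:94172368-94172617, plus strand) they mark TGCACNC or TGCGCNC on either strand, a core of the metal response element.
Trim30d: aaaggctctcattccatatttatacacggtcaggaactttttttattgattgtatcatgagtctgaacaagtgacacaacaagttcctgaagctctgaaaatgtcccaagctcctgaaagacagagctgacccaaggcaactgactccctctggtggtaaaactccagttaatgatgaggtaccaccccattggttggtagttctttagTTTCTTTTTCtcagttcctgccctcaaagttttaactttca
Gbp3: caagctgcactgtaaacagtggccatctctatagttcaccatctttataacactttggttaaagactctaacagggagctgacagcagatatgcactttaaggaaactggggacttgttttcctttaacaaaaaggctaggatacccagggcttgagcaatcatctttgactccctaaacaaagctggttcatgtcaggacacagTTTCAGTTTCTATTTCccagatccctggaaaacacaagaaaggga
Mt1: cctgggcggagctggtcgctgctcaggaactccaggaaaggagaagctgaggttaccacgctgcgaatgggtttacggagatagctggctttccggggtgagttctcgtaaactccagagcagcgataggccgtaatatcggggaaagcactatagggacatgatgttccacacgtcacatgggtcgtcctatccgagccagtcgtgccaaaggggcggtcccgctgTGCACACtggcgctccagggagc
Mt2: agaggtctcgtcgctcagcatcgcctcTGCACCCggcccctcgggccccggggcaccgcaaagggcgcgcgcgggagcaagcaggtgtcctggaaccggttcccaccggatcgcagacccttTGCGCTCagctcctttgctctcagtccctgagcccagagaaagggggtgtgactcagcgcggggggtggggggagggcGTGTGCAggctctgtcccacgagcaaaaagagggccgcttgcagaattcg
Of 27025 promoters of that length, 821 (3.04%) held the interferon element and 5749 (21.3%) the metal element, and 345 (1.28%) held at least 3 copies of the latter, as Mt2 did. A match describes letters in a window and is not evidence of binding.

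The 40 control arrays were alike in scale. The median log2 signal of an array lay between 6.35 and 6.63 in C57BL6/J, against 6.63 to 6.97 in 129S1/SvImJ, 6.30 to 6.57 in C3H/HeJ, 6.42 to 6.63 in CBA/J and 6.67 to 6.94 in DBA/2J. The C57BL6/J mean was 0.16 lower than that of the other mice (exact permutation p = 0.0268, adjusted p = 0.107 over 16 array measures). At 6.46 it was above the C3H/HeJ mean of 6.41. The permutation shuffled all 40 mice, so its p also takes in the spread between strains. Across genes, the r of 2 arrays of the same strain had a median of 0.919 and was 0.858 at the lowest, and no 2 arrays held identical values. Of the control arrays, C57BL6/J replicate 1 stood apart in macrophage markers, and C3H/HeJ replicate 8 stood apart in the 3' minus 5' signal of Gapdh, which was 0.25 against -0.43 to -0.34 in the other mice of the strain. CBA/J replicate 2 was the lowest of its strain for several of the genes described. The results were also computed without these arrays.

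A total of 14816 genes were tested, each by its brightest probe set. In C57BL6/J, 1696 genes (11.4%) were higher and 1668 (11.3%) lower than the mean of the 4 other strains at an adjusted p under 0.05, which is 22.7% of genes called in either direction. Of these, 832 (5.62%) were at least 1.5-fold higher and 755 (5.1%) at least 1.5-fold lower, or 10.7% in either direction. Centring each array on its 75th percentile turned the split into 1363 higher and 2018 lower, so 40.3% of calls were higher in place of 50.4%. Each other strain set against the remaining 4 gave a similar number of calls, namely 3176 (21.4%) in 129S1/SvImJ, 3008 (20.3%) in C3H/HeJ, 2796 (18.9%) in CBA/J and 3280 (22.1%) in DBA/2J. The shares of 11.4% of genes higher and 11.3% lower in C57BL6/J stand beside each control-diet list count below in the deposited scaling. The values below are log2 MAS5 signals, where 1 unit is a 2-fold difference, and each difference is C57BL6/J minus the other strains with its SE.

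The 4 paired contrasts share the C57BL6/J mice and are given side by side. Against 129S1/SvImJ 1743 genes (11.8%) were higher and 1651 (11.1%) lower, which is 22.9% of genes called. Against C3H/HeJ these numbers were 1352 (9.13%) and 1599 (10.8%), or 19.9%. Against CBA/J they were 1666 (11.2%) and 1513 (10.2%), or 21.5%, and against DBA/2J 1560 (10.5%) and 1701 (11.5%), or 22%. Called in all 4 contrasts were 279 higher and 308 lower genes.

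For 112 genes (0.756%) the 8 C57BL6/J mice did not overlap any of the 32 other mice, with 46 genes (0.31%) above and 66 (0.445%) below. The same count was 37 (0.25%) above and 52 (0.351%) below for 129S1/SvImJ, and 31 (0.209%) and 25 (0.169%) for DBA/2J. It was 14 (0.0945%) and 9 (0.0607%) for C3H/HeJ, and 9 (0.0607%) and 12 (0.081%) for CBA/J. Without C57BL6/J control replicate 1 the counts were 92 above and 75 below, and leaving out a mouse can only keep or raise such counts. Under quantile normalization 46 genes lay above and 45 below. On average over their mice, 12 of the 46 higher genes lay below the mean array median of 6.59 in the other strains, and 4 of the 66 lower genes lay below it in C57BL6/J, so the size of these differences is uncertain.

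The largest difference was in Nlrp12, a NOD-like receptor of innate immune cells. Its lowest, median and highest log2 signals were 12.22, 12.47 and 12.99 in C57BL6/J, against 3.01, 6.15 and 7.85 over the 32 other mice. The 8 C57BL6/J mice thus lay over 4 units above every other mouse, and the difference was 6.52 ± 0.42 (adjusted p = 7.70e-16). The other strains lay near or below the array median, so this probe set gave little signal in any of them. Trim30d had 8.01, 8.98 and 9.17 in C57BL6/J against 2.13, 4.25 and 7.45 elsewhere (4.48 ± 0.52, adjusted p = 6.46e-09), and the highest other mouse was a DBA/2J mouse. Its neighbour in the gene order, Trim30a, was also higher (0.98).

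Pttg1, Ccnf and Cenpl were also among the higher genes without overlap. Pttg1 encodes securin, which restrains the separation of sister chromatids until anaphase. Its signals were 12.91, 13.03 and 13.33 in C57BL6/J and 8.78, 10.48 and 11.13 in the others, a difference of 2.69 ± 0.14 (adjusted p = 1.20e-19, 6.45-fold). Both other probe sets of Pttg1 were called the same way. Ccnf, cyclin F, was at 8.80, 9.25 and 9.93 against 4.97, 6.76 and 7.69 (2.53 ± 0.25, adjusted p = 1.02e-10), with contrasts between 2.46 and 2.58 for the 4 strains. Cenpl, a centromere protein, differed by 2.55 ± 0.40 (adjusted p = 3.97e-06). Of the 28 measured genes of the cell cycle list, which holds none of these 3, 4 were higher and 1 was lower (11.4% and 11.3% of all genes were), with a median difference of 0.23 against -0.04 over all genes. The higher ones were the inhibitors Cdkn2c (1.09) and Cdkn1b (0.74), cyclin D1 (Ccnd1, 0.86) and Mdm2 (0.40).

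Other genes above all 32 mice were Gm7969 (5.06 ± 0.41), a probe set annotated to Mir1931 (4.52 ± 0.58), Rpgrip1 (4.26 ± 0.34), known from photoreceptors, and the zinc finger gene Zfp874a (4.01 ± 0.37). Tmem267, a membrane protein, followed at 3.97 ± 0.46 and the oligodendrocyte factor Olig1 at 3.88 ± 0.42. Adh6-ps1, an alcohol dehydrogenase pseudogene, was at 7.75, 8.48 and 9.63 in C57BL6/J and at 1.97, 5.22 and 7.31 elsewhere (3.65 ± 0.44, adjusted p = 1.46e-08). For Trim34a (3.26 ± 0.35) another probe set was called in the opposite direction, and A2ml1 (2.73 ± 0.34) and Golm2 (2.60 ± 0.46) completed the 15 largest. In Golm2 the gap was narrow, since the lowest C57BL6/J mouse was at 6.80 and the highest other mouse at 6.79.

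**Figure D1:**
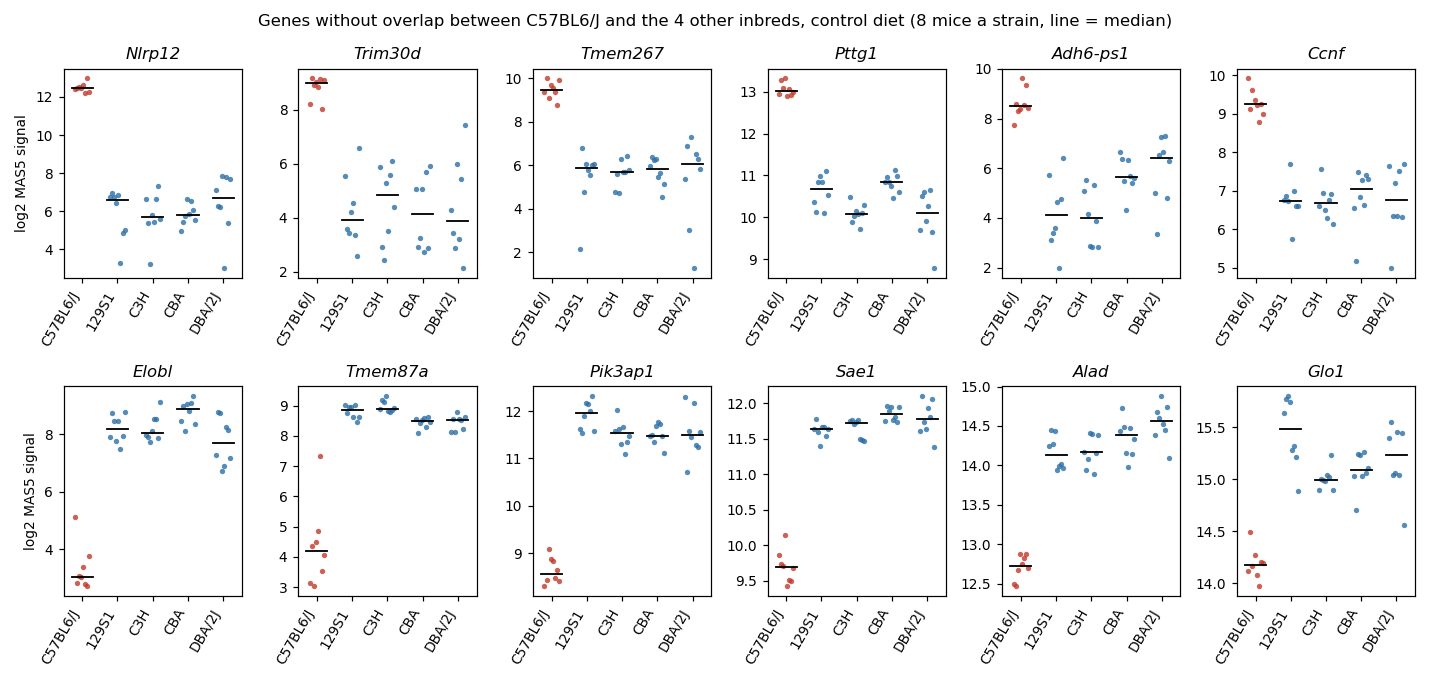
Log2 MAS5 signal of 12 genes in each of 8 control mice per strain (points, with the median as a line), 6 higher in C57BL6/J in the upper row and 6 lower in the lower row. For Nlrp12 the C57BL6/J mice lie between 12.22 and 12.99 and all others at or below 7.85, while for Glo1 the gap is small, from 14.49 in the highest C57BL6/J mouse to 14.56 in the lowest other mouse.

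Among genes below all other mice, Elobl, an elongin B-like gene, had the largest difference. Its signals were 2.72, 3.05 and 5.13 in C57BL6/J and 6.74, 8.31 and 9.33 in the others (-4.89 ± 0.24, adjusted p = 4.47e-20). C57BL6/J replicate 1 held the highest of the strain's values, and the other 7 mice lay between 2.72 and 3.76. Tmem87a, a Golgi membrane protein, was at 3.03, 4.21 and 7.33 against 8.11, 8.64 and 9.32 (-4.33 ± 0.24, adjusted p = 1.64e-18), with replicate 6 as the highest C57BL6/J mouse. In both genes C57BL6/J lay below the array median on average, so the differences of 4 units or more give a direction and no exact size.

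In several further lower genes C57BL6/J lay above the array median. Hddc3, a nucleotide hydrolase, was at 6.26, 6.96 and 7.12 in C57BL6/J against 9.43, 10.10 and 11.19 (-3.44 ± 0.14, adjusted p = 6.23e-23). Pik3ap1, an adaptor that links receptors to PI3-kinase, was at 8.30, 8.56 and 9.09 against 10.72, 11.57 and 12.32 (-2.98 ± 0.13, adjusted p = 8.81e-23). Neither gene had another probe set called in either direction, and each had 1 other. Sae1, a subunit of the enzyme that activates SUMO, had the smallest p of these genes, with 9.42, 9.69 and 10.13 against 11.38, 11.74 and 12.10 (-2.03 ± 0.08, adjusted p = 3.82e-24, 4.08-fold). Its 4 paired differences ran from -2.16 to -1.92, and 1 of its 3 other probe sets was called the same way. Cap1, an actin regulator, differed by -2.46 ± 0.10, and its other probe set was also called lower.

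Ttc39a and Pde6h were again below the array median in C57BL6/J. The remaining genes below all other mice included Ttc39a (-3.19 ± 0.31), the photoreceptor phosphodiesterase subunit Pde6h (-2.60 ± 0.28), Prelid2 of the mitochondrial lipid-transfer family (-2.22 ± 0.15), Prxl2b (-2.12 ± 0.10), Ocel1 (-2.10 ± 0.12) and Ptp4a2, a phosphatase (-2.05 ± 0.16). For Ptp4a2, 2 of the 3 other probe sets were called in the opposite direction. Tpmt, which methylates thiopurine drugs, differed by -1.75 ± 0.10, and all 3 of its other probe sets were lower too. Wdfy1, an endosomal protein, differed by -1.74 ± 0.13, with 3 of 4 other probe sets lower.

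Probe sets of a gene read different parts of its transcript, and a base that differs between strains under a probe lowers its signal. With 1 probe set, a difference in RNA level and one in probe binding cannot be told apart. Of the 112 genes, 56 had a single probe set that passed the filter. Of the other 56, 38 (67.9%) had at least 1 further probe set called the same way, 5 (8.93%) at least 1 called the opposite way, and 15 none called. Among all 1819 called genes with further probe sets, the shares were 742 (40.8%) and 133 (7.31%). Genes next to each other in the genome were also looked at. Of the 46 higher genes, 22 (47.8%) had a neighbour called higher, against 21.2% of all genes, and 24 of the 66 lower genes (36.4%) had a neighbour called lower, against 20.9%.

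Genes with textbook alleles in inbred strains were looked at as a group of 23 measured genes. Of these 3 were higher, 6 lower and 14 not called, where 11.4% of all genes were higher and 11.3% lower. The share higher was thus near that of all genes. The higher ones were Nlrp12, the natural killer cell receptor chain Klrd1 (1.96 ± 0.54) and Slc11a1 (0.565 ± 0.13), an ion transporter of macrophages. In the restricted mice Klrd1 was not called (0.85 ± 0.56, limma adjusted p = 0.301), and Slc11a1 was called lower (-0.51 ± 0.17, limma adjusted p = 0.0287). Nnt, the mitochondrial transhydrogenase that makes NADPH and of which C57BL6/J carries a deleted form, was at 10.74, 11.16 and 11.48 in C57BL6/J and at 11.16, 12.59 and 13.07 in the others (-1.25 ± 0.15, adjusted p = 2.09e-08). The groups overlapped through DBA/2J, whose lowest mouse was at 11.16, and CBA/J, whose lowest was at 11.32. The probe set gave a signal well above the array median in C57BL6/J also, and 1 of its 2 other probe sets was lower. Alad, the second enzyme of haem synthesis and a gene duplicated in some strains, was at 12.47, 12.73 and 12.88 against 13.89, 14.36 and 14.88 (-1.60 ± 0.09, adjusted p = 6.35e-19, 3.03-fold). All 8 C57BL6/J mice lay a full unit below the nearest other mouse, and the other probe set of Alad was lower as well.

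Glo1, the glyoxalase that detoxifies methylglyoxal and lies in a segment duplicated in several strains, was at 13.97, 14.17 and 14.49 against 14.56, 15.09 and 15.80. The difference of -1.0 ± 0.09 (adjusted p = 2.62e-11) is 2.00-fold, and 2 of 3 other probe sets were lower. Ifi202b, a DNA sensor that C57BL6/J is known to express poorly, was at 0.99, 2.35 and 4.99 against 1.31, 7.97 and 10.40 (-4.84 ± 0.58, adjusted p = 2.36e-08). The overlap came from 3 C3H/HeJ mice between 1.31 and 4.85 and 1 mouse of 129S1/SvImJ at 2.59, while the lowest CBA/J and DBA/2J mice were at 7.32 and 8.00. Hc (0.03 ± 0.10) and Ahr (0.31 ± 0.14), both known for strain alleles, were not called, with adjusted p = 0.870 and 0.0930. Hc, complement component C5, of which DBA/2J is known to carry a null allele, had medians of 13.71 in C57BL6/J and 12.36 in DBA/2J (contrast 1.34), against 14.12 to 14.27 in the other 3 strains.

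The medians of H2-K1 and H2-Aa were ordered by the histocompatibility haplotypes known for these strains. C57BL6/J and 129S1/SvImJ carry b, C3H/HeJ and CBA/J carry k, and DBA/2J carries d. How much of this order came from RNA level and how much from probe binding to each haplotype's sequence was not tested. H2-K1, a class I chain that presents peptides on the cell surface, had a median of 15 in C57BL6/J (14.89 to 15.32), 15.17 in 129S1/SvImJ (14.50 to 15.68), 14.40 in DBA/2J (13.99 to 14.77), 11.47 in C3H/HeJ (11.06 to 11.83) and 11.12 in CBA/J (10.85 to 11.37). C57BL6/J overlapped 129S1/SvImJ and lay above the other 3 strains. The contrast was 3.56 to C3H/HeJ and 3.91 to CBA/J, 0.59 to DBA/2J, and -0.12 to 129S1/SvImJ, which was not called (adjusted p = 0.530).

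H2-D1 had a similar order (2.25 ± 0.14 against the mean of the 4), but of its 7 other probe sets 3 were called the same way and 4 the opposite way. With the mean of its probe sets the difference turned to -0.22. Of the class II genes, H2-Aa had a median of 12.47 in C57BL6/J, 12.07 in 129S1/SvImJ, 10.73 in DBA/2J, 10.01 in C3H/HeJ and 9.87 in CBA/J (1.54 ± 0.20, adjusted p = 1.01e-07). H2-Ea, which strains of haplotype b do not express, had medians of 5.48 in C57BL6/J, 6.14 in 129S1/SvImJ, 6.43 in C3H/HeJ, 6.70 in CBA/J and 9.64 in DBA/2J, so only DBA/2J stood clear of C57BL6/J. The whole list held 27 measured genes, with 10 higher (11.4% of all genes were), 3 lower (11.3%) and a median of 0.21. Tap1 (1.0) and Cd74 (0.90) were among the higher and B2m (-0.47) and Cd1d2 (-1.66) among the lower.

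Kupffer cell and macrophage markers were higher in C57BL6/J. Of 13 measured markers 11 were higher, the other 2 were not called, and the median difference was 0.85. Counts at an unadjusted p under 0.05 were 12 higher and 0 lower, by limma, against 2349 and 2533 of all 14816 genes. The scavenger receptors Marco and Cd5l, the folate receptor Folr2, lysozyme Lyz2 (1.03) and the complement chains C1qa, C1qb and C1qc (0.85 to 0.96) were among them. Cd5l was at 10.96, 12.62 and 13.74 in C57BL6/J against 10.04, 11.14 and 12.96 in the others (1.41 ± 0.19, adjusted p = 2.73e-07), with overlap in all strains. Clec4f, a lectin found on Kupffer cells, had medians of 11.65 in C57BL6/J, 11.38 in DBA/2J, 11.19 in C3H/HeJ, 10.65 in 129S1/SvImJ and 10.21 in CBA/J (0.74 ± 0.16, adjusted p = 0.000342). Timd4 (0.62 ± 0.24, adjusted p = 0.0622) and Adgre1 (0.22 ± 0.15, adjusted p = 0.322), which encodes F4/80, were not called.

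The mean log2 signal over the 13 markers was 10.42 in C57BL6/J, with a range of 9.10 to 11.17, and 9.17, 9.60, 8.97 and 9.78 in 129S1/SvImJ, C3H/HeJ, CBA/J and DBA/2J. C57BL6/J replicate 1 had the lowest value, and the other 7 mice lay between 10.33 and 11.17, above the highest mouse of any other strain at 10.19. Without that replicate all 13 markers were higher, with a median of 1.07. The replicate was singled out by these same markers, so a larger difference without it follows from the choice. In a bulk sample, more cells of a type and more RNA per cell cannot be told apart. Hepatocyte markers moved the other way in the deposited scaling, with 8 of 9 lower, a median of -0.57 and a mean marker signal of 15.03 in C57BL6/J against strain means of 15.31 to 15.86. Under quantile normalization 2 of the 9 were lower and 1 higher. The part of either marker list in the other was not tested. Of 12 endothelial markers 2 were higher and 3 lower, with Lyve1 at 1.72 and Stab2 at -0.82. Of 13 stellate cell markers 2 were higher, of 8 T and NK cell markers 1 was lower, and of 4 measured adipocyte markers only Cidec was called, while Adipoq (0.01), Fabp4 (-0.14) and Retn (0.03) were not.

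Interferon-inducible DNA sensors and GTPases were higher as a group, beside these macrophage markers, whose part in the result was not tested. Of 17 measured members of the PYHIN family and of the guanylate-binding and immunity-related GTPases, 13 were higher, 1 was lower (Ifi202b), and the median was 1.11. Mndal, a PYHIN gene, was at 9.23, 10.24 and 10.84 in C57BL6/J. Its medians elsewhere were 8.29 in 129S1/SvImJ, 8.85 in C3H/HeJ, 2.90 in CBA/J and 5.03 in DBA/2J, so C57BL6/J stood clear of the last 2 strains and overlapped the first 2 (4.17 ± 0.51, adjusted p = 2.69e-08). Gbp3 was at 7.54, 9.21 and 9.44 in C57BL6/J against 6.00, 7.65 and 8.17 in the others (1.41 ± 0.19, adjusted p = 1.88e-07). Replicate 1, low in the macrophage markers, also held the lowest value of Gbp3, and the other 7 mice lay above every mouse of the other strains, from 8.89 to 9.44.

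The GTPase genes Gbp6 (1.54), Gbp2 (1.48), Irgm2 (1.11), Irgm1 (0.79), Igtp (0.64) and Gbp7 (0.57) and the PYHIN genes Ifi204 (2.16), Ifi209 (2.15), Ifi213 (2.08) and Ifi207 (1.31) were also higher. Ifi204 and Ifi207 lay below the array median in both groups, so the size of their differences is uncertain. PYHIN genes are near copies that lie side by side, and probe sets may not separate them. Promoters were available for 11 of the 13 higher members, and 9 of these held the interferon element shown for Gbp3, namely Ifi207, Ifi213, Mndal, Igtp, Irgm1, Irgm2, Gbp2, Gbp3 and Gbp7.

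Type I interferon-stimulated genes were mixed. Of 34 measured genes 12 were higher, 5 lower and 17 not called, with a median of 0.25. Ifit1, which binds viral RNA, had medians of 10.87 in C57BL6/J, 10.77 in DBA/2J, 9.81 in C3H/HeJ, 9.19 in CBA/J and 9.06 in 129S1/SvImJ (1.13 ± 0.28, adjusted p = 0.00194), and its contrast to DBA/2J was 0.03. Zbp1, a nucleic acid sensor, had 9.27 in C57BL6/J and 9.13 in DBA/2J, against 6.08 to 7.84 in the other 3 (1.56 ± 0.29, adjusted p = 6.55e-05). Rsad2 (1.06), Cmpk2 (1.09), Usp18 (0.86), Irf9 (0.81) and Irf7 (0.52) were higher, and Ifi44l (-3.52), Wdfy1 (-1.74) and Mx2 (-1.18) lower, of which Ifi44l and Mx2 lay below the array median in both groups. Of 9 higher members with a promoter, 3 held the interferon element (Ifit1, Rsad2 and Trim30a), and of all 21 measured members with a promoter 8 did.

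**Figure D2:**
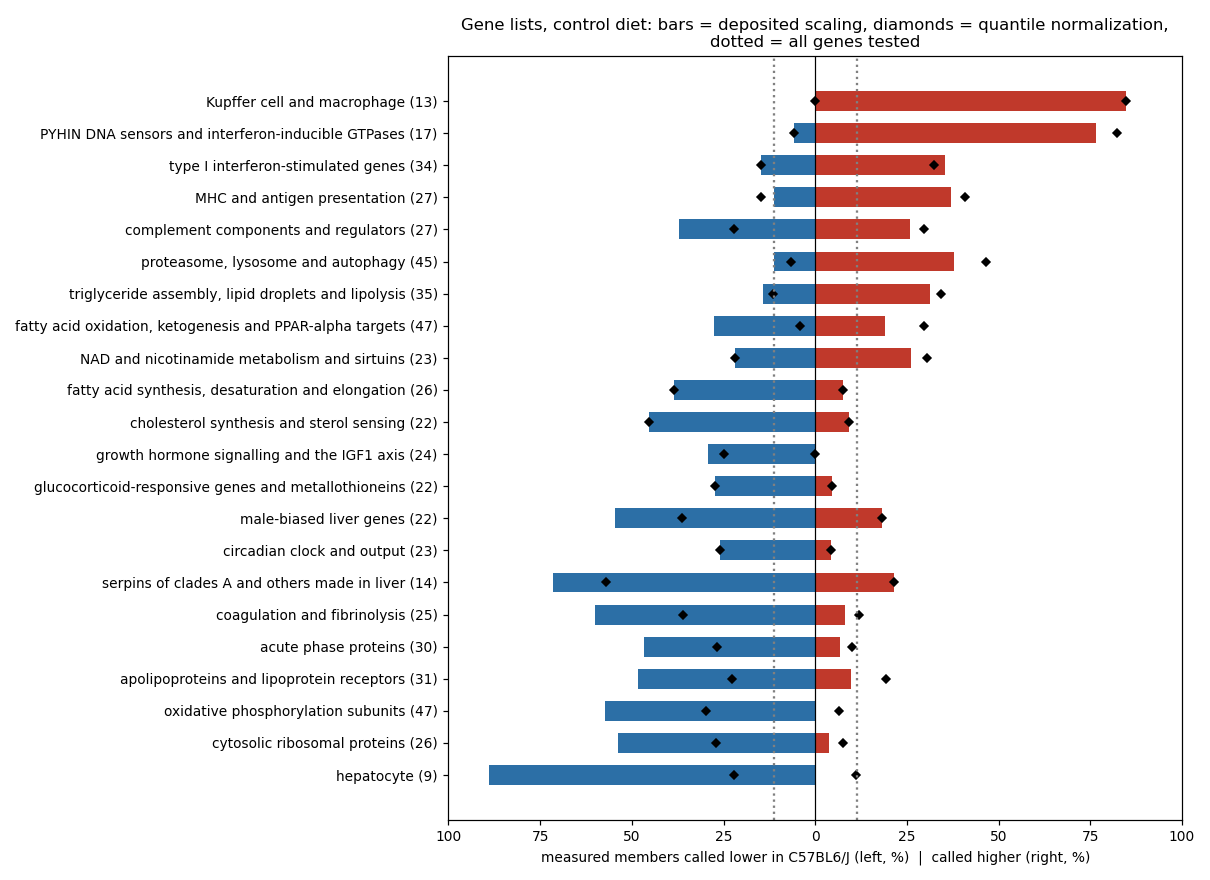
Share of the measured members of 22 gene lists called higher (right) or lower (left) in C57BL6/J on the control diet, with bars for the deposited scaling, diamonds for quantile normalization, dotted lines for all 14816 genes (11.4% and 11.3%) and the number of members in parentheses. Kupffer cell markers (11 of 13 higher) keep their share under quantile normalization, whereas fatty acid oxidation goes from 9 higher and 13 lower to 14 higher and 2 lower, and apolipoproteins from 3 and 15 to 6 and 7.

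Genes of lipid droplets included some of the largest differences of known liver genes. Cidea and Cidec promote the fusion and growth of lipid droplets. Cidea was at 7.19, 8.79 and 10.73 in C57BL6/J and at 2.32, 3.53 and 7.24 in the others (4.78 ± 0.52, adjusted p = 9.93e-10). All but the highest C3H/HeJ mouse lay below the lowest C57BL6/J mouse, and the other strains lay below the array median on average, so the fold is uncertain. Cidec was at 8.08, 9.56 and 9.91 against 2.33, 6.49 and 8.34 (2.75 ± 0.39, adjusted p = 4.44e-07), with the overlap in 129S1/SvImJ, whose median was 8.12. Lgals1, a galectin, was at 11.36, 13.02 and 13.84 against 6.58 to 11.37 in the others, with medians of 7.93 in 129S1/SvImJ, 10.17 in C3H/HeJ, 10.44 in CBA/J and 9.92 in DBA/2J. It missed a full separation by a single C3H/HeJ mouse (3.38 ± 0.24, adjusted p = 6.52e-14, 10.4-fold).

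Cd36, which takes up fatty acids, had a median of 13.19 in C57BL6/J (11.86 to 13.56) against 10.96 in 129S1/SvImJ, 11.36 in C3H/HeJ, 12.01 in CBA/J and 11.02 in DBA/2J (1.76 ± 0.21, adjusted p = 2.74e-08). Plin4 (2.19 ± 0.38), a droplet coat protein, Fitm1 (1.52 ± 0.16), which helps droplets form, and Mogat1 (1.199 ± 0.322), a monoacylglycerol acyltransferase, were also higher. Plin2, the main droplet coat protein of hepatocytes, was at 0.02 ± 0.18 and not called. In the list of triglyceride assembly and droplets 11 of 35 measured genes were higher and 5 lower, with a median of 0.02. The galectin Lgals1 is counted among the 11, and its part in droplets was not tested. The lower genes were Gpat3 (-0.86), Fabp1 (-0.76), Dgat2 (-0.47), Gpam (-0.41) and Abhd5 (-0.24). Pparg, the fat-cell nuclear receptor, was at 8.17, 9.0 and 9.34 in C57BL6/J (2.91 ± 0.40, adjusted p = 2.27e-07), but the contrast was 4.95 to C3H/HeJ and 4.37 to CBA/J and only 0.86, not called, to DBA/2J (adjusted p = 0.240).

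Of 26 measured genes of fatty acid synthesis, desaturation and elongation 10 were lower, 2 higher and 14 not called, with a median of -0.37. Without CBA/J in the mean, 4 were lower and 1 higher, with a median of -0.22. Thrsp, a regulator of lipogenesis, was at 11.84, 12.48 and 13.30 in C57BL6/J and at 10.90, 14.31 and 15.66 elsewhere (-1.58 ± 0.34, adjusted p = 0.000600), with the overlap in 129S1/SvImJ and DBA/2J. Fasn, the fatty acid synthase, had medians of 9.67 in C57BL6/J, 9.91 in DBA/2J, 10.49 in 129S1/SvImJ, 11.78 in C3H/HeJ and 12.64 in CBA/J (-1.23 ± 0.37, adjusted p = 0.0125). Its contrasts were -2.08 to C3H/HeJ and -2.65 to CBA/J, against -0.13 and -0.06 to 129S1/SvImJ and DBA/2J. The pattern was the same in Acaca, which makes malonyl-CoA (-1.75 and -1.97 against -0.45 and 0.14).

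Srebf1, the transcription factor of lipogenesis, was lower (-1.14 ± 0.25, adjusted p = 0.000673), and Elovl3, an elongase, was higher (1.10 ± 0.14). Scd1, a desaturase among the brightest genes, was called lower at -0.47 and turned to 0.14 under quantile normalization. Of 22 measured genes of cholesterol synthesis and sterol sensing 10 were lower and 2 higher, with a median of -0.48. Pmvk (-0.97 ± 0.18), Dhcr7 (-0.87 ± 0.21), Nsdhl (-0.81) and Hsd17b7 (-0.69), enzymes of the pathway, and Scap (-0.87), the sterol sensor's partner, were lower. Sc5d (1.04) and Hmgcs1 (0.75) were higher. In each list 10 genes were lower under quantile normalization as well.

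The list of growth hormone signalling and the IGF1 axis also holds the insulin receptor, its substrate Irs2 and Onecut1. Of its 24 measured genes 7 were lower and none was higher, with a median of -0.23. At an unadjusted p under 0.05, limma gave 0 higher and 10 lower, against 2349 and 2533 of all 14816 genes. The insulin receptor substrate Irs2 (-1.57 ± 0.50), Onecut1 (-1.05), Foxo1 (-0.87), Foxo3 (-0.68), the insulin receptor Insr (-0.48), Ghr (-0.41 ± 0.10) and Igf1 (-0.33 ± 0.08) were the 7. The count fell to 4 without C57BL6/J control replicate 5 or replicate 6, to 2 when probe sets were averaged and to 1 with the array median as a covariate. Under quantile normalization Ghr (-0.16, limma adjusted p = 0.146) and Igf1 (-0.09, limma adjusted p = 0.544) were not called. Foxo1 (-0.89) and Onecut1 (-1.09) remained lower there. In the deposited scaling, another probe set of Igf1 was lower (-0.40), and those at 0.06 and 0.25 were not called. Igf1 was at 14.12, 14.24 and 14.46 in C57BL6/J and overlapped every other strain, whose medians lay between 14.40 and 14.85.

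Of 22 male-biased liver genes 12 were lower and 4 higher, with a median of -0.53, and 8 were lower under quantile normalization. Obp2a, a lipocalin, was at 2.99, 5.57 and 6.70 in C57BL6/J. Its medians were 12.19 in DBA/2J, 9.51 in 129S1/SvImJ, 7.32 in CBA/J and 6.21 in C3H/HeJ, and C57BL6/J overlapped the last 2 (-3.37 ± 0.32, adjusted p = 7.63e-11). Hsd3b5, a steroid enzyme of male liver, was at 11.23, 12.25 and 14.02 against 12.18, 14.04 and 15.04 (-1.43 ± 0.21, adjusted p = 2.46e-06), and did not differ by call from 129S1/SvImJ (-0.31, adjusted p = 0.450). Of the female-biased genes 5 of 24 were higher and 4 lower (11.4% and 11.3% of all genes were). Cyp17a1, a steroid hydroxylase, had medians of 9.61 in C57BL6/J and 11.43 in 129S1/SvImJ, against 7.67 in DBA/2J, 4.76 in C3H/HeJ and 4.31 in CBA/J (2.96 ± 0.49, adjusted p = 1.10e-05).

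Cytochrome P450 enzymes of families 1 to 3 and their receptors held large differences in both directions, with 3 of 38 higher and 14 lower, or 6 and 9 under quantile normalization. Cyp2c39 was at 6.70, 7.90 and 8.46 in C57BL6/J, and its medians were 14.04 in 129S1/SvImJ, 11.87 in C3H/HeJ, 11.69 in CBA/J and 10.27 in DBA/2J (-4.02 ± 0.23, adjusted p = 4.78e-17). Only the lowest DBA/2J mouse, at 8.46, reached the C57BL6/J range. Cyp2c70, which makes the muricholic acids of mouse bile, was at 11.26, 11.58 and 12.45 against 12.60, 14.46 and 15.34 (-2.54 ± 0.16, adjusted p = 1.87e-16), below all other mice. Cyp1a2 (-1.34 ± 0.21) was lower too. Cyp2c37 was higher (1.99 ± 0.14), but its contrast was 5.68 to 129S1/SvImJ and 0.50 to 0.94 to the other 3. Cyp3a13 (1.74 ± 0.11) was near the level of 129S1/SvImJ (contrast 0.21) and 2.02 to 2.67 above the others. Members of the Cyp2c family are close copies, and binding of one member's RNA to another's probes was not tested.

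Metallothioneins were lower. Mt1 was at 10.60, 11.77 and 12.85 in C57BL6/J and at 12.49, 13.70 and 15.86 in the others (-2.06 ± 0.27, adjusted p = 1.62e-07, 4.17-fold), and its other probe set was lower too. Mt2, its neighbour in the genome, was at 9.24, 9.94 and 10.91 against 10.56, 12.40 and 14.26 (-2.36 ± 0.33, adjusted p = 8.04e-07, 5.13-fold). The groups overlapped in both genes, with 129S1/SvImJ holding the lowest of the other mice. Both promoters hold the metal element shown above. Of the 22 genes in the list of glucocorticoid targets and metallothioneins 6 were lower and 1, Cyp17a1, was higher, and the other lower members were Serpina6 (-1.21), which encodes the corticosteroid-binding globulin, Hsd11b1 (-0.72), Tat (-0.57) and Klf9 (-0.45). Hamp2, a paralog of the iron hormone hepcidin, was at 11.62, 12.06 and 12.69 in C57BL6/J and had medians of 12.66, 14.48, 14.51 and 16.43 in 129S1/SvImJ, C3H/HeJ, CBA/J and DBA/2J (-2.37 ± 0.15, adjusted p = 5.60e-16), so that it overlapped only 129S1/SvImJ. Hamp itself (-0.26 ± 0.15, adjusted p = 0.239) was not called, and Id1, a target of the pathway that induces hepcidin, was higher (1.40 ± 0.17).

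Other genes with large differences were Nnmt, which methylates nicotinamide, and the small heat shock protein Hspb1. Nnmt was at 10.77, 11.72 and 12.65 in C57BL6/J and at 5.53, 8.57 and 10.88 in the others (3.22 ± 0.41, adjusted p = 1.35e-07, 9.32-fold), with overlap in a single mouse of CBA/J. Hspb1 was at 9.73, 10.92 and 11.07 against 7.14, 8.01 and 9.84 (2.39 ± 0.20, adjusted p = 5.88e-13), with overlap in 1 DBA/2J mouse. Of the NAD genes 6 of 23 were higher and 5 lower, so Nnmt did not stand for its list. For this and the next lists, 11.4% of all genes were higher and 11.3% lower. Of 22 heat shock chaperones 5 were higher and 1, Hspa1a (-1.40), was lower. Among 14 measured serpins 10 were lower and 3 higher, with Serpina11 at -2.01 ± 0.08 and Serpinb1a at 2.79 ± 0.41. Of the clock genes 6 of 23 were lower, including Per3 (-1.0), Cry1 (-1.01) and Bhlhe41 (-1.03), and Clock was higher (0.76). The hour of tissue collection is not known here.

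Abundant liver transcripts were lower in C57BL6/J in the deposited scaling. Of 328 genes with a mean log2 signal above 14, 200 were lower and 6 higher with a median of -0.36, whereas quantile normalization gave 67 lower, 78 higher and a median of 0.02. Lists made of such genes moved with this choice. Oxidative phosphorylation subunits had 27 of 47 lower and none higher, and 14 lower and 3 higher after quantile normalization. At an unadjusted p under 0.05, by limma, 0 were higher also, against 2349 of all 14816 genes. Ribosomal proteins had 14 of 26 lower and 1 higher, then 7 and 2. Coagulation factors had 15 of 25 lower and 2 higher, then 9 and 3, and acute phase proteins 14 of 30 and 2, then 8 and 3. Of 9 hepatocyte markers 8 were lower, among them Alb (-0.79), Apoa1 (-0.80) and Ttr (-0.78), against 2 lower and 1 higher after quantile normalization. Fatty acid oxidation genes turned direction as a list, from 9 higher and 13 lower of 47 to 14 higher and 2 lower. For these lists the direction relative to other genes depends on the scaling.

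**Figure D3:**
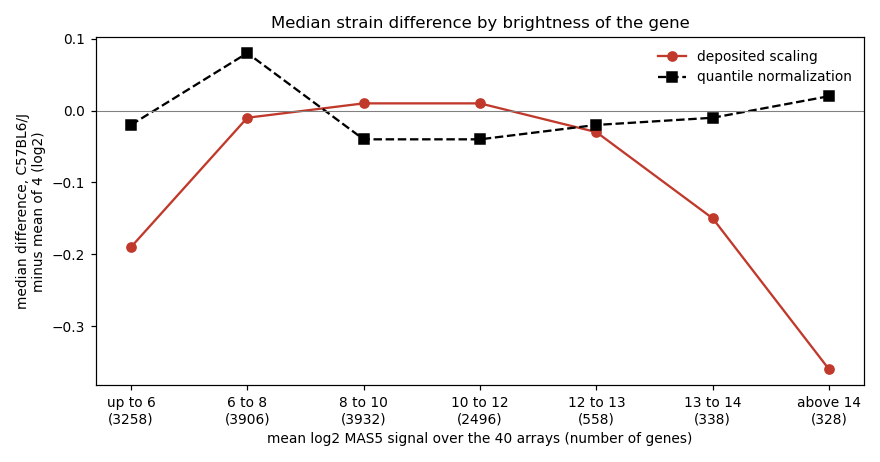
Median difference of C57BL6/J from the mean of the 4 other inbreds (log2) by the mean log2 signal of the gene, with the deposited scaling as circles, quantile normalization as squares and the number of genes in parentheses. With the deposited scaling the median falls from 0.01 for genes between 8 and 12 to -0.36 for the 328 genes above 14, where quantile normalization gives 0.02.

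The lists less tied to bright genes changed little. Under quantile normalization 11 of 13 macrophage markers, 14 of 17 PYHIN and GTPase genes, 11 of 27 histocompatibility genes and 12 of 35 droplet genes were higher, and 10 genes each of fatty acid and cholesterol synthesis were lower. The list of proteasome, lysosome and autophagy genes had 17 of 45 higher and 5 lower (21 and 3 after quantile normalization), including the lysosomal enzymes Dnase2a (1.51 ± 0.17), Hexa (0.91) and the cathepsins Ctss (0.86) and Ctsc (0.76). Macrophages are rich in such enzymes, and the part of the macrophage markers in this result was not tested.

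The same contrast was made on the restricted diet, with C57BL6/J against 129S1/SvImJ, C3H/HeJ and DBA/2J in 32 restricted mice. Restricted CBA/J mice were left out because their array medians lay between 6.99 and 7.50, against 6.21 to 6.48 in restricted C57BL6/J, 6.64 to 6.99 in 129S1/SvImJ and 6.31 to 6.64 in C3H/HeJ mice. In these mice 1403 genes (9.47%) were higher in C57BL6/J and 1594 (10.8%) lower, or 20.2% in all, and 74 (0.499%) lay above and 63 (0.425%) below all mice of the 3 strains. DBA/2J restricted replicate 6 stood apart, with an array median of 8.29 and a Gapdh 3' minus 5' signal of 2.51. Without it, in an alternative chosen after seeing the data, 1766 genes were higher and 2235 lower.

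Of the 112 genes without overlap on the control diet, 100 were called in the same direction in the restricted mice and 0 in the opposite direction, also at an unadjusted p under 0.05, by limma. Over all 14816 genes, 537 had a restricted difference of opposite sign at that unadjusted cutoff. Without DBA/2J restricted replicate 6 the number called in the same direction was 109. For 20 of the 46 higher and 22 of the 66 lower genes the restricted groups again did not overlap. Of all 3364 genes called on the control diet, 1616 were called in the same direction on the restricted diet and 13 in the opposite direction. The restricted difference was 5.19 in Nlrp12, 2.97 in Pttg1, 3.75 in Ccnf, -4.98 in Elobl, -3.19 in Pik3ap1, -1.74 in Sae1, -1.26 in Alad and -1.04 in Glo1. Mt1 (-1.70) and Mt2 (-1.79) were lower and Cyp2c39 (-4.17) was lower on both diets.

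**Figure D4:**
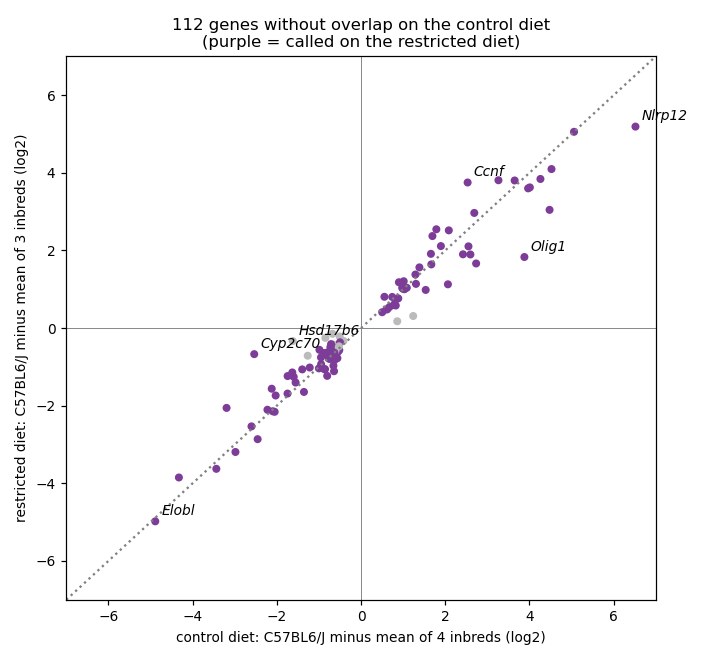
Difference of C57BL6/J from the other inbreds (log2) on the control diet (horizontal axis, 4 strains) and on the restricted diet (vertical axis, 3 strains) for the 112 genes without overlap on the control diet, in purple where the restricted contrast was called (100 genes) and grey where it was not. No point was called with opposite signs, and Cyp2c70 lies off the dotted line of equality at -2.54 and -0.67.

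Whether the strain contrast itself differed between diets was tested in 64 mice of 4 strains, with the same 3 inbreds on both diets. It differed in 51 genes (0.344%), with 26 in which the control contrast was the larger value and 25 in which it was the smaller. Without DBA/2J restricted replicate 6 there were 106 such genes, which included all 51. Of the 112 genes without overlap only Cyp2c70, Hsd17b6 and Slc17a3 were among the 51.

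Of the 35 genes in the list of triglyceride assembly and droplets 3 were among the 51, namely Cidea, Cidec and the galectin Lgals1. Cidea was at 2.58, 4.65 and 6.63 in restricted C57BL6/J mice, against 7.19, 8.79 and 10.73 in control mice of the strain, and the restricted contrast was 0.01 (adjusted p = 0.996). The difference between diets in the contrast was 4.88 ± 0.87 (adjusted p = 0.00123). Cidec had a restricted median of 6.88 in C57BL6/J, inside the 6.04 to 6.94 of the other 3 medians, with a restricted contrast of 0.22 and a difference between diets of 2.29 ± 0.44 (adjusted p = 0.00311). Lgals1 kept a restricted contrast of 1.90, smaller by 1.72 ± 0.36 (adjusted p = 0.00788). Cd36, with a restricted contrast of 1.03, was not among the 51 genes.

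Nnmt, with a median of 11.72 in control C57BL6/J mice, was at 12.92, 13.29 and 14.07 in restricted ones. Restricted mice of 129S1/SvImJ, C3H/HeJ and DBA/2J had medians of 12.38, 12.73 and 13.22, so the restricted contrast was 0.59 and the groups overlapped (difference between diets 2.69 ± 0.47, adjusted p = 0.00122). Cyp2c70 had a restricted median of 14.08 in C57BL6/J against 14.56, 14.62 and 15.02, a contrast of -0.67 (difference between diets -1.80 ± 0.22, adjusted p = 1.87e-07). Cyp26a1, which breaks down retinoic acid, was lower in C57BL6/J on the control diet (7.21 against medians of 7.63 to 8.59) and higher on the restricted diet (9.94 against 7.67 to 7.85 in the 3 strains). Against these 3 strains its contrasts were -0.70 on the control diet and 1.98 on the restricted diet, and differed by -2.69 ± 0.33 (adjusted p = 1.87e-07).

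Tff3, a trefoil peptide of mucosal surfaces, was not called on the control diet, at 0.75 ± 0.40 against the same 3 inbreds (adjusted p = 0.203), and was lower on the restricted diet (-2.55), a difference of 3.29 ± 0.55 (adjusted p = 0.000471). Eif4b, a translation initiation factor, had small contrasts to these strains of -0.27 on the control and 0.55 on the restricted diet (difference -0.82 ± 0.13, adjusted p = 0.000202), neither of its 2 other probe sets was called on the control diet, and the mean of its probe sets gave 0.005 there. Ccl2, a monocyte-attracting chemokine, had contrasts to them of 0.60 and -2.55, and Lepr, the leptin receptor, of 0.47 and 2.20, and neither was called on the control diet. Foxo3 (-0.53 and 0.81) and Slco1a1 (-0.52 and -1.79) were also among the 51.

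**Figure D5:**
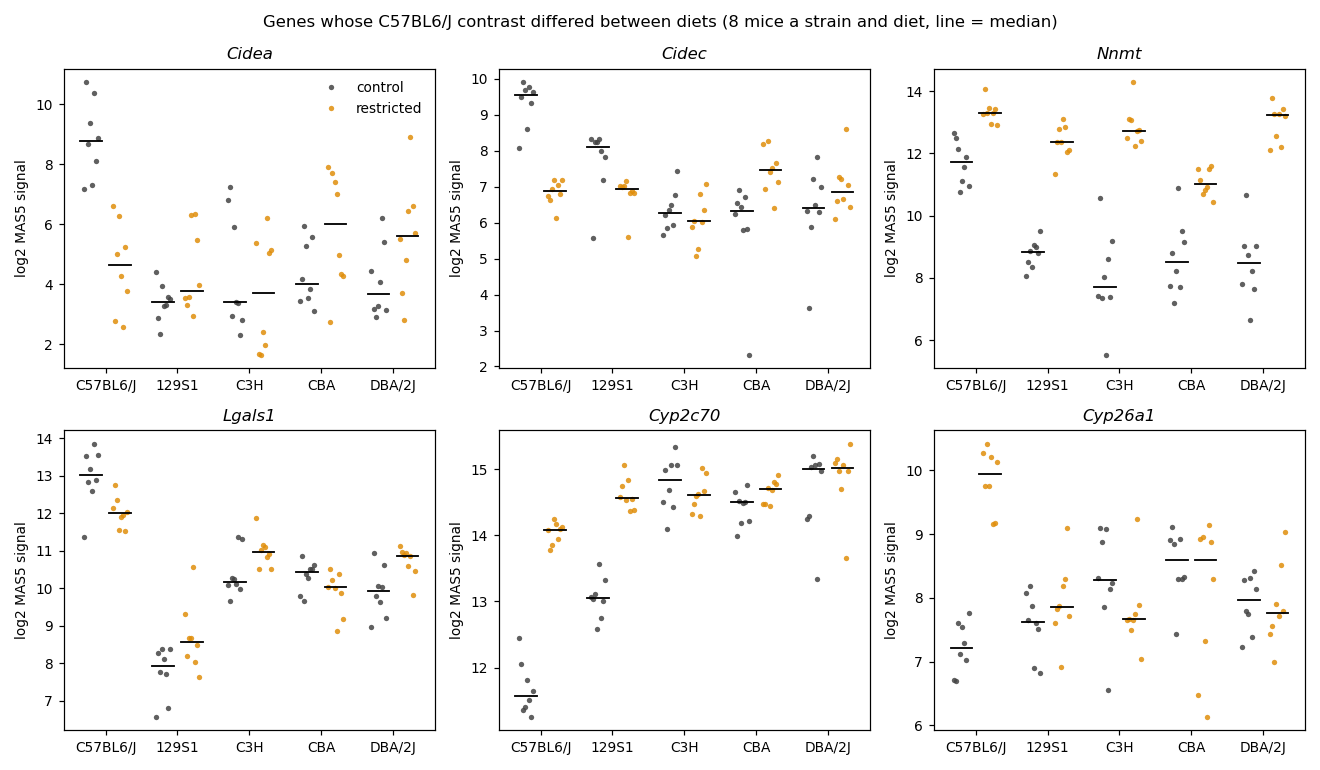
Log2 MAS5 signal of 6 genes whose C57BL6/J contrast differed between diets, in 8 control (grey) and 8 restricted (orange) mice of each of the 5 inbred strains, with the median as a line. Cidea has a median of 8.79 in control and 4.65 in restricted C57BL6/J mice, while Nnmt has 11.72 and 13.29, and restricted CBA/J mice are shown but were not in the test.

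The macrophage list had few calls on the restricted diet, where 9.47% of all genes were higher and 10.8% lower. Of the 13 macrophage markers 1 was higher and 1 lower with a median of -0.21, against 9 higher and a median of 0.64 on the control diet with the same 3 inbreds. The mean marker signal of restricted C57BL6/J mice was 9.77, with a range of 9.11 to 10.70, against 9.38, 9.96 and 9.95 in restricted 129S1/SvImJ, C3H/HeJ and DBA/2J. No single marker passed the test of the difference between diets (0 of 13 by limma, and 9 of 13 at an unadjusted p under 0.05). At that unadjusted cutoff 1238 of all 14816 genes differed between diets. Of the 17 PYHIN and GTPase genes 2 were higher and 4 lower on the restricted diet with a median of -0.01, against 12 higher and 1.08 on the control diet with these strains. Gbp3 (restricted contrast 0.05, difference between diets 1.41 ± 0.35, adjusted p = 0.0493) and Ifi47 were the 2 that passed the test between diets. For the interferon-stimulated genes the restricted counts were 2 higher and 7 lower of 34, with a median of -0.18, and Usp18 passed that test.

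For the other lists the same shares of all genes apply, 9.47% higher and 10.8% lower. On the restricted diet 6 of 22 genes of cholesterol synthesis were lower and 1 higher, 12 of 22 male-biased genes were lower and 1 higher, and 5 of 26 genes of fatty acid synthesis were lower. The droplet list had 5 of 35 higher and 5 lower, the histocompatibility list 3 of 27 higher and 2 lower, and the growth hormone list 2 of 24 higher and 3 lower, with medians of -0.05, -0.23 and 0.02, shares close to those of all genes. Without DBA/2J restricted replicate 6 the lower counts were 11 for cholesterol synthesis, 14 for male-biased genes, 9 for fatty acid synthesis, 10 for droplets, 6 for histocompatibility and 7 for growth hormone. The count over all 14816 genes rose as well, from 1594 to 2235 lower, so the shares above do not apply to these counts.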

How the data were processed

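Liver RNA of single mice was hybridised to Affymetrix whole-genome mouse arrays. The deposited values are intensities on a linear scale, which the authors made with MAS5, per the submitters' processing notes. The deposited values had a mean, after trimming 2% at each end, of 500 to 500.2 per array. The MAS5 version is unknown here. Signals were put on the log2 scale with no further scaling. Of 45101 probe sets, 64 controls were left out, and 32999 were kept that reached their array's median on 8 or more of the 96 arrays. Of all probe sets 34958 had 1 symbol, 932 several and 9211 none. Only the first were named, 34754 of them matched the GRCm38.p6 gene table, and each of 14816 genes was read by the probe set with the highest mean. The fit used limma 3.58.1 (lmFit and eBayes with trend and robust) in R 4.3.3 on 40 arrays with 35 residual degrees of freedom, equal strain weights and Benjamini-Hochberg adjustment over all genes, which also holds for the restricted diet (32 arrays) and the difference between diets (64 arrays). Figures and array measures used Python 3.11.15, numpy 2.4.6, scipy 1.17.1, pandas 2.3.3 and matplotlib 3.10.9. The fit was tested on simulated data. The number of arrays limits the precision.

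The members and the 45 pathway and 13 marker lists were chosen with earlier results of these data known. Named were the 15 genes with the largest difference in each direction among called genes without overlap, up to 3 members of each list, 12 genes named whatever their values and 6 for the difference between diets (174 genes in all). Other members of lists were chosen after their values were seen. Alternatives covered scaling, filters, probe-set choice, test settings, left-out strains and left-out mice.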

Additional observations from a re-analysis of the deposited data

Results flagged for a closer look

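The 58 genes checked and 5 array measures gave 315 sets of 8 values, all from the same control mice. In 30 sets a mouse had a gap to the nearest other mouse that was large for the range. Chance gives about 1 in 20 for independent, normally spread values. These sets share their mice and include dim genes, so that rate does not apply directly to the 30. In C57BL6/J, replicate 1 was apart in Elobl (5.13), Mndal (9.23), Gbp3 (7.54), Cd5l (10.96) and the mean of the macrophage markers (9.10), and replicate 6 in Tmem87a (7.33). CBA/J replicate 2 was apart in Ccnf (5.18), Cap1 (10.46), Nnt (11.32), Glo1 (14.70) and Obp2a (6.13). Other CBA/J mice were apart in Gm7969 (0.76, replicate 6), Rpgrip1 (2.46, replicate 4), Cidec (2.33, replicate 8) and Ifi202b (7.32, replicate 1).

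In C3H/HeJ, replicate 8 was apart in Ptp4a2 (11.97) and in the 3' minus 5' signals of Gapdh (0.25) and actin (1.56), and replicate 7 in Cenpl (3.19), Glo1 (15.23) and Cd5l (11.64). Further C3H/HeJ mice were apart in Nlrp12 (3.25, replicate 3), Gm7969 (2.07, replicate 5) and Tff3 (11.72, replicate 2). In 129S1/SvImJ the values were Tmem267 2.15 (replicate 1), Trim34a 3.57 and Cidec 5.57 (replicate 2) and Ifi202b 2.59 (replicate 4), and in DBA/2J Cidec 3.62 (replicate 2) and Hsd3b5 13.04 (replicate 1).

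The contrast between C57BL6/J and the same 3 inbreds differed between diets, by limma, in 9 of the 58 named genes checked here. Apcs, Gsta4 and Slc17a3, named genes outside these 58, also differed between diets and are not in the list that follows. The control contrast minus the restricted contrast was 4.88 in Cidea, 3.29 in Tff3, 2.69 in Nnmt, 2.29 in Cidec, 1.72 in Lgals1 and 1.41 in Gbp3, and it was -2.69 in Cyp26a1, -1.80 in Cyp2c70 and -0.82 in Eif4b.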

How the results depend on the processing

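Across the alternatives for scaling, filter, probe-set choice and test, the numbers of higher and lower genes stayed within 1.5 times of 1696 and 1668 except in these. A 1.5-fold minimum gave 832 and 755, the array median as a covariate 1094 and 1063, and a fit over all 12 groups 1166 and 1101. Quantile normalization gave 1662 and 1601 and kept 2835 calls in the same direction with 10 opposite. Leaving out each C57BL6/J mouse gave 1461 to 1740 higher and 1437 to 1797 lower genes. Without CBA/J control replicate 2 and C3H/HeJ control replicate 8, a choice made after seeing the data, 1733 and 1739 were called.

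The 46 genes above all other mice became 27 with 75th percentile centring, 95 with every probe set, 97 without 129S1/SvImJ, 70 without C3H/HeJ, 71 without DBA/2J and 48 to 92 without each C57BL6/J mouse, with the 92 from leaving out replicate 1. The 66 below became 45 under quantile normalization, where 46 lay above. They became 48 with the mean of probe sets, where 59 lay above, and 60 with 75th percentile centring. The 66 became 108 without 129S1/SvImJ and 66 to 79 without each C57BL6/J mouse. Leaving out mice or a strain can only keep or raise these counts. On the restricted diet, adding CBA/J gave 2636 lower genes, and 315 genes whose contrast differed between diets, against 106 without DBA/2J restricted replicate 6.

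Among the 174 named genes, quantile normalization turned 9, Cat (0.10), Ces1c (0.056), Scd1 (0.14), Hadh (0.002), Fbp1 (0.023), Cyp2e1 (0.18), Scp2 (0.029), Bhmt (0.11) and Mgst1 (0.023). Of these only Cyp2e1 was called in the turned direction (limma adjusted p = 0.00107). A further 16 named genes kept their direction under quantile normalization but lost their call. The mean of probe sets turned 4, H2-D1 (-0.22), Hsd17b13 (-0.32), Eif4b (0.005) and Mgst1 (0.31). The cause was not tested, and leaving out single C57BL6/J mice turned none. Across those runs and the run without CBA/J control replicate 2 and C3H/HeJ control replicate 8, 5 named genes lost their call at least 1 time. Replicate numbers do not pair the mice (median correlation of deviations 0.012 over 80 pairs), and a replicate block gave 1878 higher and 1877 lower genes. Signals near the array median limit the size of differences in dim genes.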
